A study of Mus musculus with 14 samples.

Results

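The 6 mature microRNAs (miRNAs) described here, mmu-miR-128-3p, mmu-miR-129-5p, mmu-miR-129-2-3p, mmu-miR-135a-5p, mmu-miR-137-3p and mmu-miR-138-5p, belong to families known as brain-enriched. They were taken by name (the prefix mmu- is left out below) from the 1247 mouse miRNAs of an Agilent array, and all 6 were on it. Levels were read on 14 arrays, 4 of hypothalamus and 10 of bone marrow, from male C57BL/6 mice of 6 to 8 weeks killed 12 h after 8 or 0 Gy of gamma rays. In hypothalamus the pretreatments were amifostine i.p. and PBS i.p. In bone marrow they were CBLB502 i.p., amifostine i.p., nilestriol i.g., PBS i.p. and PBS i.g. The dose of amifostine, a radical-scavenging thiol prodrug, was 10 mg/kg, injected 0.5 h ahead of the rays. That of CBLB502, derived from bacterial flagellin and a ligand of a Toll-like receptor, was 0.2 mg/kg at 0.5 h ahead. The oestrogen derivative nilestriol was given at 150 mg/kg, 48 h ahead. The vehicle was phosphate-buffered saline (PBS), injected into the abdomen (i.p.) or given into the stomach (i.g.). Each array held a pool of 3 mice and each condition had 1 array, so the spread in every test is that between arrays of different conditions.

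A miRNA is cut from a hairpin precursor whose 5p and 3p arms can each give a mature strand. The strand, held by an Argonaute protein, represses mRNAs that pair with its seed, the bases next to its 5′ end. In the brain these miRNAs are best known from neurons. miR-128 restrains neuronal excitability in mice, miR-129-5p represses the potassium channel Kv1.1 in rodent neurons, and miR-138 limits the size of dendritic spines in rat neurons. miR-137 acts in neuronal differentiation and lies in a human schizophrenia risk locus, and miR-135a acts on the serotonin system of mice, where it targets the serotonin transporter. Outside the brain, miR-128 is known from human acute lymphoblastic leukaemia and miR-135a as a repressor of the kinase JAK2 in human lymphoma cells.

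The mature strands are shown because their seeds set the families apart and the array probes pair with them from the 3′ end. The 2 probes of miR-135a-5p reach back to bases 1 and 2 of the strand, and those of miR-128-3p to bases 2 and 3. Those of miR-137-3p reach bases 4 and 5, of miR-129-2-3p 5 and 6, of miR-129-5p 7 and 8, and of miR-138-5p 9 and 10. Sequences are from RefSeq (build GRCm38.p6), 5′ to 3′, with the seed (bases 2 to 8) in capitals.
miR-128-3p: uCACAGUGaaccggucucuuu
miR-129-5p: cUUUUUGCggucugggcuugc
miR-129-2-3p: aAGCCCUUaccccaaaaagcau
miR-135a-5p: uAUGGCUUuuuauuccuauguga
miR-137-3p: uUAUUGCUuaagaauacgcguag
miR-138-5p: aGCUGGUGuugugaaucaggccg
The 6 strands carried 6 different seeds. Among the array's 1247 miRNAs, 1017 had a RefSeq mature sequence, and of these no other shared any of the 6 seeds over bases 2 to 8. miR-135b-5p and miR-129-1-3p had no entry there, so their seeds were not compared. The 23-base probe of miR-135b-5p matches that of miR-135a-5p over the bases facing the seed. The 18-base probe of miR-129-1-3p differs from that of miR-129-2-3p by 1 base, which does not face the seed. That probe starts at base 5 of miR-129-2-3p, so it covers only part of the seed.

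The strands come from 10 sites in the mouse genome, and 4 of the 6 are encoded at more than 1 site. miR-128-3p lies at chr1:128202404-128202424 (plus strand, Mir128-1) within the span of the protein-coding gene R3hdm1. Its other copy lies at chr9:112118644-112118664 (minus strand, Mir128-2) within the span of Arpp21. miR-129-5p is encoded by Mir129-1 at chr6:29022624-29022644 (plus strand) and by Mir129-2 at chr2:94241419-94241439 (minus strand). miR-129-2-3p, the other arm of the Mir129-2 hairpin, lies at chr2:94241376-94241397, within the span of the long non-coding gene Mir670hg like its partner. miR-135a-5p is encoded by Mir135a-1 at chr9:106154140-106154162 (plus strand), within the spans of Glyctk and the long non-coding D030055H07Rik, and by Mir135a-2 at chr10:92072141-92072163 (minus strand). miR-137-3p has the site chr3:118433901-118433923 (plus strand, Mir137). miR-138-5p is encoded by Mir138-1 at chr9:122682898-122682920 and by Mir138-2 at chr8:94324312-94324334 (both plus strand). The Mir138-2 site lies within the span of Nup93. The array reads the mature strand, so copies at different sites cannot be told apart.

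All 6 miRNAs were detected on 4 of 4 hypothalamus arrays. In bone marrow miR-128-3p was detected on 10 of 10 arrays, miR-135a-5p on 8 of 10, and miR-129-5p, miR-129-2-3p, miR-137-3p and miR-138-5p on 0 of 10. A miRNA counted as detected where the scanner software marked it so, which for these miRNAs was a total signal above 3 times its error on 84 of 84 readings. Signals below are the background-subtracted fluorescence of the miRNA's 40 spots, averaged over its 2 probes. Those of different miRNAs are not set against each other, because probes differ in brightness.

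miR-128-3p gave 6461 and 6731 signal units in hypothalamus with amifostine (8 and 0 Gy) and 7819 and 6107 with PBS (8 and 0 Gy). Its bone marrow signals lay between 57.8 and 129, with a median of 96.4. The lowest hypothalamus array lay above the highest bone marrow array, and every bone marrow array lay above the floor. The floor, the level to which dim values were raised before taking log2, corresponded to 7.14 to 9.52 units on the hypothalamus arrays and 5.85 to 8.79 units on those of bone marrow.
miR-135a-5p gave 540.4 and 515 units in hypothalamus with amifostine (8 and 0 Gy) and 497 and 609.5 with PBS (8 and 0 Gy), against 3.23 to 15.9 units in bone marrow (median 9.10). Its bone marrow readings therefore straddled the floor.
miR-129-2-3p gave 3906 and 3946 units in hypothalamus with amifostine and 4130.0 and 3366 with PBS (8 and 0 Gy each), against 3.05 to 5.94 in bone marrow. The bone marrow signals were positive on all 10 arrays but not called detected.
miR-137-3p gave 1429 and 1451 units in hypothalamus with amifostine and 1291.5 and 1760.5 with PBS (8 and 0 Gy each). In bone marrow its signal was below 0 on 10 of 10 arrays, from -3.37 to -1.45.
miR-138-5p gave 887 and 932 units in hypothalamus with amifostine and 893 and 892 with PBS (8 and 0 Gy each), against -2.29 to 0.71 in bone marrow. In this unscaled signal its SD over the 4 hypothalamus arrays was 0.03 on the log2 scale, below those of the other five.
miR-129-5p gave 298 and 281 units in hypothalamus with amifostine and 315 and 297 with PBS (8 and 0 Gy each), against -1.02 to 1.91 in bone marrow. The tissues did not overlap for any of the 6, which for those not detected in bone marrow repeats their detection. How many of all miRNAs separated in this way was not counted. In the tissue comparison below, 297 of 530 miRNAs tested (56%) passed.

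The tissues were compared on the 8 arrays whose 4 conditions were run in both (amifostine i.p. and PBS i.p., each at 8 and 0 Gy), with the condition as block. With PBS i.p. both tissues lay on slide 1. With amifostine bone marrow lay on slide 2 and hypothalamus on slide 3, so there the tissue cannot be told apart from the slide. Signals were first scaled to each array's 75th percentile, taken over the 277 miRNAs that all 8 arrays detected. Of the 530 miRNAs tested, 297 (56%) passed, 213 of them (40.2%) higher in hypothalamus, with limma and Benjamini-Hochberg adjustment at 0.05. Of the 6, miR-128-3p and miR-135a-5p were also detected in bone marrow, and both passed as higher in hypothalamus. The other four met the detection filter through the hypothalamus arrays alone, so that they had to differ, and no test is given for them. Here and in the comparisons below, fewer cells of a type and less miRNA per cell cannot be told apart.

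The log2 difference of miR-128-3p was 5.51 ± 0.28 (SE, n = 4 arrays each), or 45.7-fold, with adjusted p = 8.45e-05 in limma. Within the 4 conditions it ranged between 4.65 and 6.14. miR-135a-5p differed by 5.17 ± 0.30, or 36.1-fold, with 1 of its 4 bone marrow arrays at the floor (adjusted p = 1.29e-04 in limma). Only these had a measured bone marrow level among the 6 on the matched arrays.
For the other four the bone marrow side is a bound, since every array lay at the floor. With the main processing miR-129-2-3p was at least 426-fold higher in hypothalamus, miR-137-3p at least 164-fold, miR-138-5p at least 100.4-fold and miR-129-5p at least 33.2-fold. A second bound took each array's lowest detected signal in place of the floor, or the miRNA's own signal where that was higher. It was 670.3-fold, 404-fold, 247-fold and 81.6-fold in the same order. Both bounds depend on the processing. Over 15 other settings the log2 differences of these miRNAs ran from 5.32 to 13.67, 4.10 to 12.44, 3.41 to 11.47 and 1.98 to 9.855 in that order. Their spread in hypothalamus was an SD of 0.23 to 0.40 on the log2 scale. The plot of the 8 matched arrays shows the 6 gaps.

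**Figure D1:**
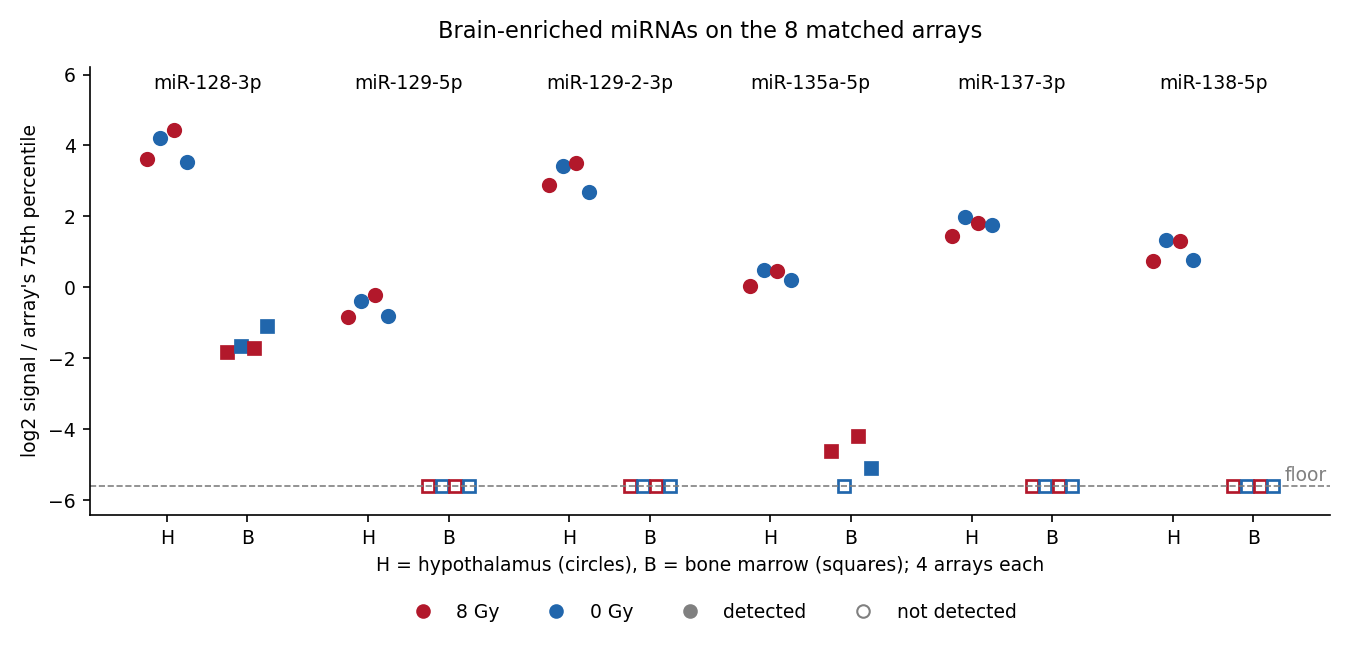
Log2 signal relative to the array's 75th percentile for each miRNA (y axis) on the 4 hypothalamus and the 4 bone marrow arrays of the matched conditions (x axis), with 8 Gy in red and 0 Gy in blue and hollow marks for miRNAs not detected. For miR-129-5p, miR-129-2-3p, miR-137-3p and miR-138-5p all bone marrow marks lie on the floor (dashed line), while miR-128-3p in bone marrow lies well above it.

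The tissue labels were checked against other miRNAs. The 11 listed neuronal miRNAs (among them miR-124-3p, miR-9-5p and miR-132-3p) were all detected on the 4 hypothalamus arrays, with a summed signal of 22585 to 23780 units, against 17.4 to 37.6 in bone marrow. Of the 11, 2 were detected in bone marrow, miR-212-3p and miR-326-3p, on 9 of 10 arrays each, and the other nine, miR-124-3p, miR-9-5p and miR-132-3p among them, on none.
The 6 listed blood miRNAs summed to 1052 to 1336 units in hypothalamus and 35654 to 105024 in bone marrow. In hypothalamus 4 of them were detected, while miR-142-5p and miR-144-3p were not. In bone marrow miR-128-3p was detected on 10 arrays, miR-212-3p and miR-326-3p on 9 each, and the rest of the neuronal list on none. The source of miR-128-3p in bone marrow was not tested.
Among the hypothalamus arrays, the listed pituitary and epithelial miRNAs summed to 708 units on the 0 Gy amifostine array, against 131 on the 8 Gy amifostine array and 46.8 and 93.5 with PBS (8 and 0 Gy). On that array all 6 of this list were detected, against 4 or 5 of 6 on the other hypothalamus arrays. Within the list miR-375-3p reached at most 17.7 units in hypothalamus, and miR-200a-3p, miR-200b-3p and miR-429-3p reached 205, 204 and 216. The listed muscle miRNAs summed to 250 units on the 0 Gy amifostine array and 127 on the 8 Gy amifostine array. With PBS they summed to 103 and 98.6 (8 and 0 Gy). What these miRNAs came from, and any part of it in the values of the brain-enriched miRNAs, was not tested.

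The other arms of the same hairpins, with the relative miR-135b, make a list of 10 strands. In hypothalamus 7 of the 10 were detected on all 4 arrays, and in bone marrow 1 of 10. The strand detected in bone marrow was miR-135a-1-3p.
miR-129-1-3p, the 3p arm of Mir129-1, gave 326 to 431 units in hypothalamus and 2.24 to 5.83 in bone marrow, where it was not detected. Its 18-base probe differs from that of miR-129-2-3p by the substitution G3A, counted from the probe's 5′ end. The 2 probes are shown with that base in capitals.
probe for miR-129-2-3p: atGctttttggggtaagg
probe for miR-129-1-3p: atActttttggggtaagg
miR-135b-5p gave 255 to 286 units in hypothalamus and at most 1.49 in bone marrow, where it was detected on 0 of 10 arrays. Its 23-base probe differs from that of miR-135a-5p by A13G.
probe for miR-135a-5p: tcacataggaatAaaaagccata
probe for miR-135b-5p: tcacataggaatGaaaagccata
How far each of these near-identical pairs binds the other's target on the array was not tested, and their hypothalamus levels are uncertain for that reason. In bone marrow miR-135a-5p was detected on 8 arrays and miR-135b-5p on none of them.

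The arms of miR-135a differed in the sign of their tissue difference. miR-135a-1-3p, the 3p arm of Mir135a-1, was detected on all 14 arrays.
miR-135a-1-3p: uAUAGGGAuuggagccguggcg
It lies at chr9:106154179-106154200 (plus strand). Its 4 probes pair with only 10 to 13 bases at the 3′ end of the strand and are 76.9 to 83.3% G and C, whereas the probes of miR-135a-5p pair with 22 and 23 bases and are 30.4 and 31.8% G and C. In hypothalamus miR-135a-1-3p gave 119.8 and 48.5 units with amifostine and 42.8 and 79.7 with PBS (8 and 0 Gy each), against 65.3 to 141 units in bone marrow, so the tissues overlapped in raw signal. On the scaled values it was lower in hypothalamus by 0.97 on the log2 scale (-0.97 ± 0.23, adjusted p = 0.0211 in limma). Without scaling between arrays the difference was -0.32 ± 0.44 (adjusted p = 0.607), so the call depends on the scaling, which moved the median of all miRNAs by 0.48. miR-135a-2-3p, the 3p arm of the other copy, was detected in hypothalamus alone, at 31.3 to 43.5 units.

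The next comparison asked how 8 Gy changed these miRNAs in bone marrow across the 5 arms, with the arm as block. miR-128-3p and miR-135a-5p could be tested, because the others were below the detection filter (detected on a share of at least 0.5 of the 10 arrays). Of 371 miRNAs tested, 47 (12.7%) passed in limma after Benjamini-Hochberg adjustment, and 34 (9.16%) were higher at 8 Gy.

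miR-135a-5p was the member called, and it rose. At 8 Gy it gave 8.42 units with CBLB502, 9.66 with amifostine, 11.6 with nilestriol, 15.7 with PBS i.p. and 15.9 with PBS i.g. At 0 Gy it gave 3.23, 5.54, 8.55, 7.78 and 12.9 units in the same arms. Each arm was higher at 8 Gy, although the doses overlapped across arms. At 8 Gy all 5 arrays detected it and at 0 Gy 3 of 5 did, the exceptions being CBLB502 and amifostine.
On the log2 scale the 8 minus 0 Gy differences were 0.28 with CBLB502, 0.72 with amifostine, 0.67 with nilestriol, 0.80 with PBS i.p. and 0.18 with PBS i.g. The fitted difference was 0.53 ± 0.13, or 1.45-fold (adjusted p = 0.0469 in limma), just past the threshold. The 0 Gy values of CBLB502 and amifostine lay at the floor, so their differences are lower limits.
The 2 probes gave different sizes. The 23-base probe was higher at 8 Gy in 5 of 5 arms, by 0.68 on average, and the 22-base probe in 3 of 5 arms, by 0.25. With CBLB502 and amifostine the 22-base probe lay at the floor at both doses, so the floor enters its count and average. Before the floor it gave 4.67 and 2.93 units with CBLB502 and 5.55 and 3.33 with amifostine (8 and 0 Gy each). In the same comparison 3 of the 6 listed blood miRNAs passed as higher at 8 Gy: the red-cell miR-144-3p (1.60 on the log2 scale) and miR-451a (1.40), and the myeloid miR-223-3p (0.54). None passed as lower, the lymphocyte miR-150-5p lying at -0.60 (adjusted p = 0.0703 in limma). The summed signal of the 6 was 67160 to 105024 units at 8 Gy and 35654 to 54332 at 0 Gy, with all 6 detected on every bone marrow array. The part of these markers in the miR-135a-5p difference was not tested.
With 17 of 21 other settings no member passed, and every arm left out in turn ended the call, with differences between 0.43 and 0.63 and adjusted p from 0.0609 to 0.166. Within slide 1 (CBLB502 and both PBS arms) the difference was 0.42 ± 0.16 and within slide 2 (amifostine and nilestriol) 0.76 ± 0.09, at adjusted p of 0.147 and 0.176 in limma.

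miR-128-3p did not pass. At 8 Gy it gave 57.8 units with CBLB502, 67.5 with amifostine, 79.3 with nilestriol, 86.4 with PBS i.p. and 106.4 with PBS i.g. At 0 Gy it gave 109.7, 110.3, 81.0, 124 and 129 units in the same arms. The 8 Gy array was the dimmer in every arm before scaling, by the least with nilestriol.
After scaling, the 8 minus 0 Gy differences were -0.84 with CBLB502, -0.30 with amifostine, 0.20 with nilestriol, -0.74 with PBS i.p. and -0.40 with PBS i.g. The fit gave -0.42 ± 0.17 (adjusted p = 0.134 in limma), opposite in sign to that of miR-135a-5p. Its probes were close, at -0.43 and -0.41. Without the nilestriol arm the difference was -0.57 ± 0.12 (adjusted p = 0.0353), and without any other arm it was not called. Within slide 1 it was -0.65 ± 0.12 (adjusted p = 0.0576) and within slide 2 -0.02 ± 0.20 (adjusted p = 0.975).

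**Figure D2:**
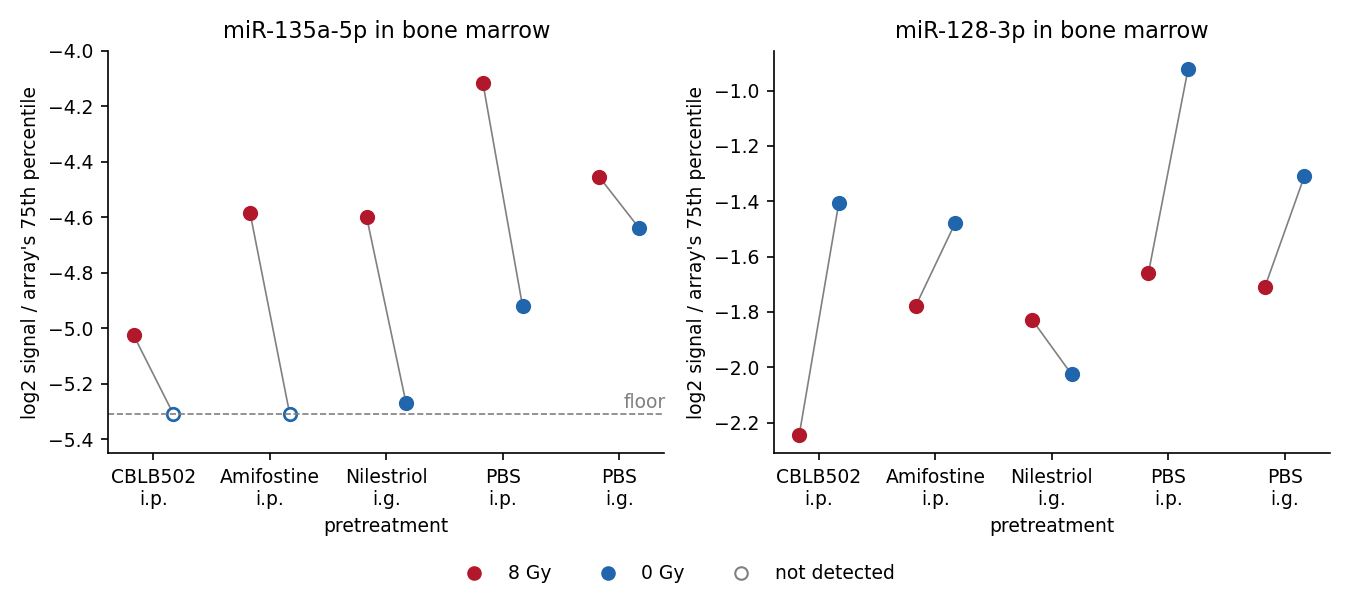
Log2 signal relative to the array's 75th percentile (y axis) in bone marrow for miR-135a-5p (left) and miR-128-3p (right) in each pretreatment (x axis), 1 array per point, with 8 Gy in red and 0 Gy in blue and lines joining the doses of an arm. miR-135a-5p is higher at 8 Gy in 5 of 5 arms with 2 hollow marks at the floor (not detected), and miR-128-3p is lower at 8 Gy in 4 of 5 arms.

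The 3 miRNAs whose levels followed miR-128-3p most closely over the 10 bone marrow arrays, among 295 others detected on all of them, were miR-130b-3p (Pearson r = 0.96), miR-3069-3p (0.93) and miR-30e-3p (0.92). These correlations describe arrays that share tissue, scaling and slides. The irradiation differences of the 3 were -0.27, -0.48 and -0.26 in that order, and that of miR-3069-3p passed (adjusted p = 0.0469 in limma). No such list was made for miR-135a-5p, which was not detected on all 10 arrays.

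Each drug was set against PBS over both doses, with the 4 PBS arrays as the common control of all 3 comparisons. The fitted differences of both miRNAs were negative with every drug, and 1 of them passed. With CBLB502 miR-135a-5p fell by 0.63 on the log2 scale (-0.63 ± 0.16, 1.55-fold, adjusted p = 0.0445 in limma), where 45 of 371 miRNAs (12.1%) passed and 25 (6.74%) were lower. Beside the PBS i.p. array of its dose, the CBLB502 array was lower by 0.91 at 8 Gy (log2 -5.03 with CBLB502 and -4.12 with PBS) and by at least 0.39 at 0 Gy, where CBLB502 lay at the floor.
In the same comparison 1 of the 6 blood miRNAs passed as lower, miR-223-3p (-0.95, adjusted p = 0.0277 in limma), as did 1 of 2 oligodendrocyte miRNAs, miR-338-3p (-0.84, adjusted p = 0.0445), and none of either list as higher. The blood miRNAs summed to 38492 and 67160 units with CBLB502 and 44463 to 105024 with PBS, and the oligodendrocyte pair to 27.9 and 31.4 units with CBLB502 and 33.0 to 60.2 with PBS. Their part in the miR-135a-5p difference was not tested.
The CBLB502 and PBS arrays shared a slide, and within it the difference was -0.60 ± 0.15 (adjusted p = 0.0457). With the 2 PBS arrays of the same route alone it was -0.58 ± 0.22 (adjusted p = 0.178). Leaving out single arrays gave -0.78 to -0.50, and the call was kept (adjusted p = 0.0485) when the 8 Gy PBS i.g. array was left out and lost (0.0753 to 0.313) without any of the other 5.
miR-128-3p differed by -0.43 ± 0.22 with CBLB502 (adjusted p = 0.193). Its 8 Gy CBLB502 array was the lowest of the 10, at log2 -2.25, while the other four 8 Gy arrays lay between -1.83 and -1.66.

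With amifostine miR-135a-5p differed by -0.41 ± 0.16 and miR-128-3p by -0.23 ± 0.22 (adjusted p = 0.222 and 0.556 in limma). With nilestriol the differences were -0.40 ± 0.16 and -0.53 ± 0.22 (adjusted p = 0.180 and 0.190). In each of these comparisons 0 of 371 miRNAs (0%) passed in limma, with 76 and 95 at an unadjusted p under 0.05. Amifostine and nilestriol shared a slide that held no PBS array, so these drugs cannot be told apart from the slide.
All 12 differences between a drug array and the PBS array of its route and dose were negative, 6 for each miRNA, with values of -0.72 to -0.12 for miR-128-3p and -0.91 to -0.14 for miR-135a-5p. These are not independent, since amifostine and CBLB502 share the PBS i.p. arrays. At 0 Gy both drugs lay at the floor for miR-135a-5p and gave the same value, -0.39. How many of the 371 miRNAs share this pattern was not counted. The PBS arrays of the 2 routes differed from each other by less for miR-135a-5p at 0 Gy (0.28, i.g. minus i.p.) and at 8 Gy (-0.34) than CBLB502 did from PBS. For miR-128-3p the routes differed by -0.39 at 0 Gy and -0.05 at 8 Gy. A test of whether the irradiation difference varied with the drug found 0 of 371 (0%), with 80 at an unadjusted p under 0.05 in limma. In that test the adjusted p was 0.366 for miR-128-3p and 0.734 for miR-135a-5p.

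The 3p arm miR-135a-1-3p, by contrast, passed as higher with CBLB502. It gave 141 units at 8 Gy and 126 at 0 Gy with CBLB502, against 83.4 and 65.3 units with PBS i.p. and 89.8 and 95.3 with PBS i.g. at the same doses. CBLB502 and PBS did not overlap, and the log2 difference was 0.74 ± 0.17 (adjusted p = 0.0445 in limma). How many of the 371 miRNAs separated in this way was not counted. Over 18 other settings the call was kept in 7, with differences of 0.45 to 0.99. The 5p and 3p strands named miR-135a thus differed in sign with CBLB502. miR-135a-5p also comes from Mir135a-2, so its difference cannot be assigned to either hairpin. Both calls were lost without scaling between arrays, at 0.69 ± 0.28 (adjusted p = 0.157) for the 3p arm and -0.69 ± 0.22 (adjusted p = 0.104) for the 5p arm. With irradiation miR-135a-1-3p differed by -0.12 ± 0.14 (adjusted p = 0.521).

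**Figure D3:**
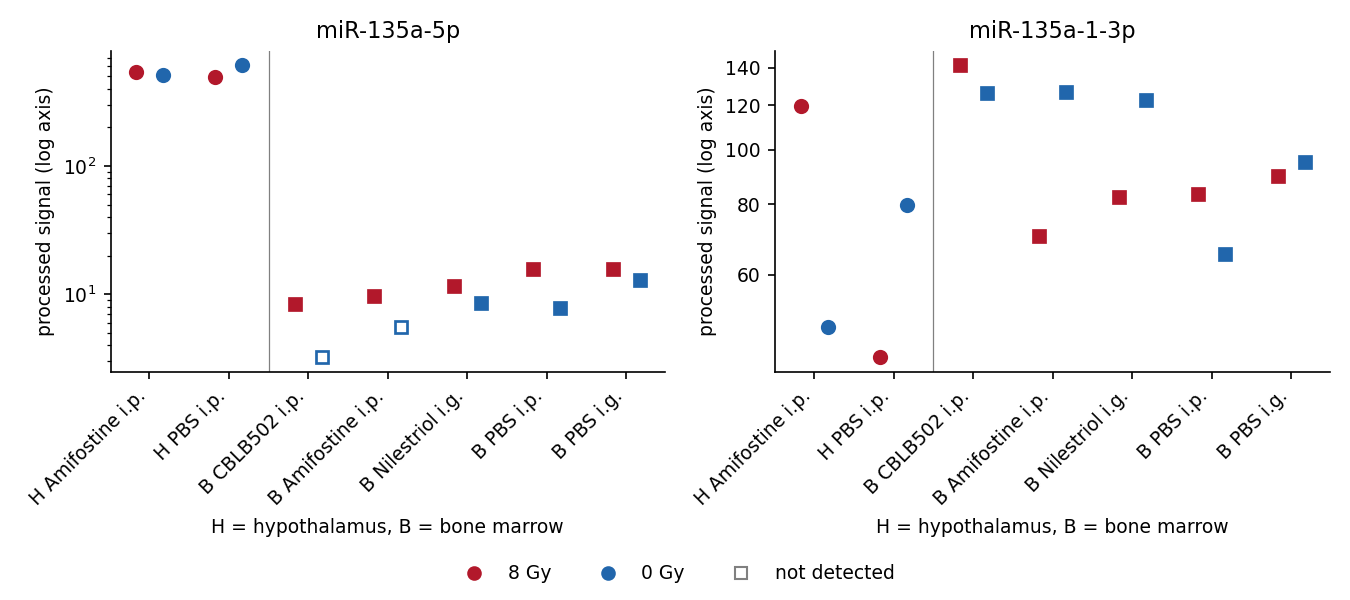
Processed signal on a log axis (y axis) of miR-135a-5p (left) and miR-135a-1-3p (right) on all 14 arrays by tissue and pretreatment (x axis; circles for hypothalamus, squares for bone marrow), with 8 Gy in red, 0 Gy in blue and hollow marks for not detected. miR-135a-5p separates the tissues, while miR-135a-1-3p spans 42.8 to 119.8 units in hypothalamus and 65.3 to 141 in bone marrow.

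In hypothalamus 8 Gy was compared with 0 Gy over the amifostine and PBS arms. None of the 544 miRNAs tested passed (0%), and 0 had an unadjusted p under 0.05 in limma, in a fit with 1 residual degree of freedom. The 6 differences were -0.34 ± 0.18 for miR-137-3p, -0.21 ± 0.19 for miR-135a-5p, -0.14 ± 0.30 for miR-138-5p, -0.02 ± 0.27 for miR-129-5p, 0.04 ± 0.37 for miR-129-2-3p and 0.05 ± 0.40 for miR-128-3p. Their adjusted p was 1 in limma, and their median was -0.08, as was that of all miRNAs tested.
The arms, each with 1 array per dose, are given as values without a test. With amifostine all 6 differences were negative, from -0.49 to -0.33. With PBS they were 0.57 for miR-128-3p, 0.51 for miR-129-2-3p, 0.29 for miR-129-5p, 0.21 for miR-138-5p, -0.08 for miR-135a-5p and -0.24 for miR-137-3p.
The scaling value of the array differed between the same arrays. The 75th percentile was 370 units at 8 Gy and 277 at 0 Gy with amifostine, and 285 at 8 Gy and 330 at 0 Gy with PBS. In unscaled signal the amifostine differences of the 6 lay between -0.07 and 0.08, and those with PBS between -0.45 and 0.36. Signs in the arms depended on the scaling: unscaled, miR-135a-5p was at 0.07 with amifostine and -0.29 with PBS, and miR-129-5p at 0.08 in both arms. For miR-138-5p the SD over the 4 arrays was 0.03 on the log2 scale before scaling and 0.22 after it, and for miR-129-5p it was 0.07 and 0.20. After scaling the lowest SD was that of miR-135a-5p, 0.16. All 6 spread more after scaling than before. Without scaling, the fit again called none of them, with miR-137-3p at -0.23 ± 0.18 and miR-128-3p at 0.15 ± 0.18.

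**Figure D4:**
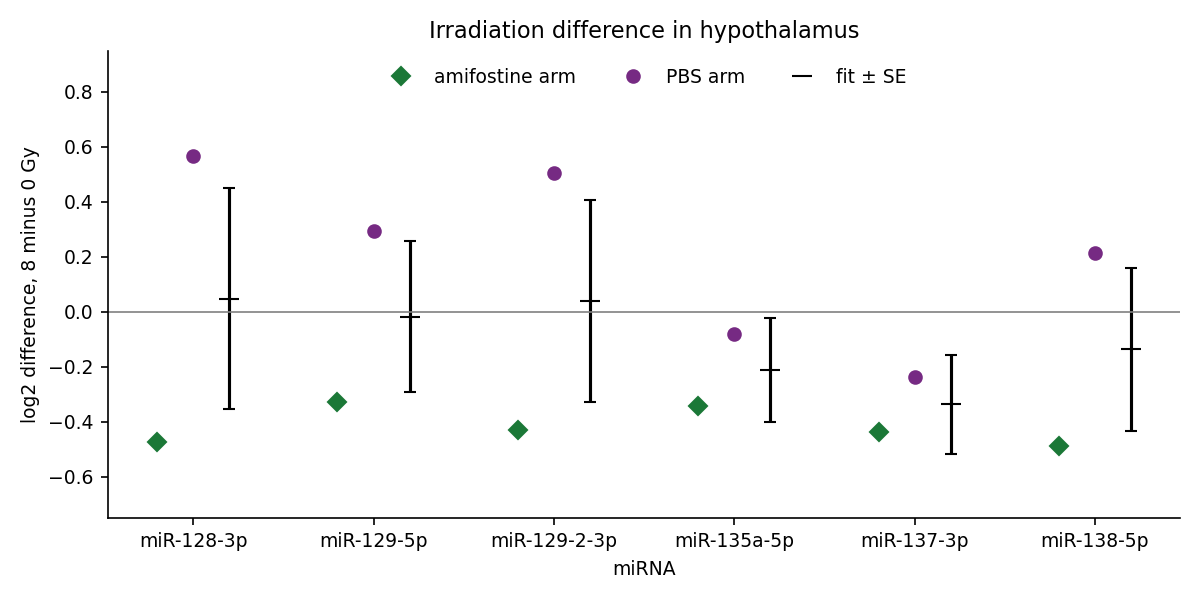
Log2 difference between 8 and 0 Gy in hypothalamus (y axis) for the 6 miRNAs (x axis), in the amifostine arm (diamonds) and the PBS arm (circles), with the fitted difference ± SE (bars). All 6 diamonds lie below 0, and the circles of miR-128-3p, miR-129-5p, miR-129-2-3p and miR-138-5p lie above it.

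Amifostine against PBS in hypothalamus gave 0 of 544 (0%), with 1 miRNA at an unadjusted p under 0.05 in limma. The 6 differences lay between -0.15 for miR-129-5p and 0.01 for miR-129-2-3p, each smaller than its SE (0.18 to 0.40). The amifostine arrays of hypothalamus lay on a slide of their own, and the drug cannot be told apart from it.

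The last comparison asked whether the irradiation difference was the same in the tissues, on the 8 matched arrays. It called 0 of 530 miRNAs (0%), with 17 at an unadjusted p under 0.05 in limma. The member nearest to that level was miR-135a-5p, at -1.07 ± 0.39 (hypothalamus minus bone marrow, unadjusted p = 0.0526, adjusted p = 1). Its 0 Gy amifostine array of bone marrow lay at the floor, and over 12 other settings its estimate ran from -3.845 to -0.43. On scaled values its 8 minus 0 Gy difference was negative in both hypothalamus arms and positive in all 5 bone marrow arms, and the test of that difference did not pass. In unscaled signal the amifostine arm of hypothalamus was at 0.07. The other 5 lay between -0.24 for miR-137-3p and 0.54 ± 0.57 for miR-128-3p. The 4 miRNAs at the floor in bone marrow add no bone marrow difference to this comparison.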

How the data were processed

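Each array's file, as the authors deposited it, gives the fluorescence intensity of every spot after background subtraction. Per the file headers, scans were read by Feature Extraction 10.7.1.1. A table of log2 values per miRNA, also deposited by the authors with a normalization not given in the sources used here, served as an alternative. Spots marked as outliers (4.42 to 5.27%) were dropped, and the rest averaged within probes and then across a miRNA's probes. Each array was scaled to its 75th percentile, computed over the 296 miRNAs that all bone marrow arrays detected (471 for hypothalamus, 277 for matched arrays). Dim values were raised to a floor, set at the 5th percentile of detected signals (median across arrays), and log2 was taken. A miRNA was tested if a share of at least 0.5 of the fit's arrays detected it, using limma 3.58.1 in R 4.3.3 (with the package data.table, version 1.17.8), two-sided, with Benjamini-Hochberg adjustment at 0.05 over all miRNAs tested. The fits were tested on simulated data. RefSeq sequences were matched by name for 6 of 6 miRNAs. Alternatives changed the scaling, background, floor, filter, arrays and block. The 6 miRNAs were described in every comparison; they and the lists were chosen with earlier results of these data known. The number of arrays, 1 per condition, limits the precision.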

Additional observations from a re-analysis of the deposited data

Results flagged for a closer look

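The level of miR-128-3p on the 8 Gy CBLB502 bone marrow array, at -2.25 on the log2 scale, stood apart from the other four 8 Gy bone marrow arrays: its gap to the nearest of them was a share of 0.711 of the whole range of the 5. Of 12 groups of values examined in this way this was the one that stood apart. Chance gives such a gap about 1 time in 20 for a single group, and more often for 1 among 12 groups. Without the CBLB502 arm the irradiation difference of miR-128-3p in bone marrow was -0.31 ± 0.18 (adjusted p = 0.295 in limma), against -0.42 ± 0.17 with it.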

How the results depend on the processing

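Of the 6 miRNAs, the number passing for bone marrow irradiation was 1, and it was 0 with scaling over all miRNAs, quantile normalization, normexp background, the authors' value table, detection required on every array or on at least 1, PBS arrays alone, no arm block, slide in place of the arm, within slide 1, within slide 2, and, added after seeing the data, without the amifostine and CBLB502 arms and with no scaling between arrays. Leaving out an arm gave 0 to 1, the 1 being miR-128-3p without the nilestriol arm (-0.57 ± 0.12, adjusted p = 0.0353) and not miR-135a-5p. For CBLB502 it was 1, and 0 with normexp background, the authors' value table, either detection filter, PBS of the same route and no scaling. Leaving out an array gave 0 to 1. For nilestriol it was 0, and 1 with scaling over all miRNAs (miR-135a-5p, -0.64 ± 0.15). Leaving out an array gave 0 to 1, the 1 being miR-128-3p without the 8 Gy nilestriol array (-0.91 ± 0.22). For the tissue difference, 4 entered through the hypothalamus arrays alone and had to differ, so they are not counted here. Of the others, miR-128-3p passed in 16 of 16 settings and miR-135a-5p in 15 of 15. Their log2 tissue differences ran from 4.10 to 6.16 and from 2.51 to 5.89 in that order. Detection required on every array leaves miR-128-3p alone of the 6. In the remaining 5 comparisons the number passing was 0 under every setting run. miR-135a-5p kept a positive irradiation difference in 20 of 20 settings (0.16 to 2.90) and a negative CBLB502 difference in 17 of 17 (-3.98 to -0.12), and miR-128-3p a negative one in 21 of 21 and 18 of 18. Signs turned only among differences that were not called, such as that of miR-135a-1-3p with nilestriol (-0.018 with scaling over all miRNAs), of miR-129-5p with irradiation in hypothalamus (same sign in 5 of 9 settings) and of miR-129-2-3p with amifostine there (6 of 9). For both of these miR-135a-5p differences the smallest size came with normexp background and the largest with the authors' value table. Leaving the arrays unscaled moved the median of all miRNAs by -0.11 for bone marrow amifostine and by 0.48 for the tissue difference, and by under 0.1 in the other comparisons. No array could be left out in hypothalamus for lack of residual degrees of freedom, and no slide held both PBS and amifostine or nilestriol. No paired analysis by replicate number was possible because the labels number no replicates, so the arm served as block in bone marrow.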
